A study of Mus musculus with 111 samples.

Results

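Cytosolic ribosomal proteins build the ribosomes that translate messages outside the mitochondria, and their genes were followed here in mouse gastrocnemius, the calf muscle that the Achilles tendon anchors to the heel. Members were taken by symbol: every gene whose platform symbol starts with Rpl or Rps and a digit, together with Rplp0, Rplp1, Rplp2 and Rpsa, and without the Rps6k kinases. Of 18195 genes with a probe set that lists a single gene, 51 were members. Of these, 50 were among the 16029 genes tested, because the probe set of Rps16 did not pass the filter on low signals. The tested members comprise 22 genes of the large subunit, 20 of the small subunit and 8 set apart. The genes set apart are the paralogues Rpl3l, Rpl22l1, Rpl7l1, Rpl39l, Rps27l and Rps4l, the pseudogene Rps15a-ps6, and Rps19bp1, which encodes a protein that binds Rps19. A further 31 symbols, among them Rpl3, Rpl5, Rplp1 and Rps12, were represented only by probe sets shared with other genes and were not analysed here.

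The mice were male C57BL/6 animals, 8 weeks old, and each of the 111 arrays carried the RNA of 1 muscle of 1 of 70 mice. In the casting cohort the right hindlimb was immobilised and the left leg was the untreated control, giving 10, 7 and 9 cast muscles and 9, 8 and 9 untreated ones after 2, 7 and 14 days. In the tenotomy cohort an Achilles tendon was cut, and 5, 7 and 5 muscles of each leg were taken at days 2, 7 and 14. Sham operation exposed and handled the tendon and left it whole, and gave 3, 7 and 8 right muscles, and 7 right muscles came from untreated naive mice. The day 2 sham muscles carry no treatment label and were placed by their titles. All muscles are whole tissue, so fewer cells of a type and less RNA per cell cannot be told apart.

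The sample labels and the series text disagree about the operated leg of the tenotomy mice. The labels call the left legs tenotomy and the right legs control, and the design text states that the right tendon was cut. Both are therefore named by side below, and every left minus right difference turns its sign under the other reading. The 16 macrophage markers were higher in the right legs than in sham at day 2 in 16 of 16 cases. Their summed signal was 17001 to 21905 in the right legs at that day, 1146 to 2536 in the left legs and 1776 to 3224 in sham. The lowest signal of the macrophage marker Adgre1 on any array was 54.5, and no marker was at 0. The fibre markers of the tissue were bright throughout, with a median naive signal of 18200 for Tnnt3 and 17000 for Actn3, components of the fast contractile apparatus.

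A ribosome joins a large subunit, which forms peptide bonds, to a small subunit, which reads the message, and most of its proteins are made in equal numbers. Their messages carry a run of pyrimidines at the very 5′ end, the terminal oligopyrimidine (TOP) tract, through which the kinase complex mTORC1 and the binding protein Larp1 adjust how much of the message is translated. Skeletal muscle gains ribosomes as it grows, and mTORC1 activity is a known regulator of its size. Rpl3l replaces the ubiquitous Rpl3 in the ribosomes of mature striated muscle, which makes it the member most tied to this tissue.

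Start site sequences are shown for members that the results below turn on and for 3 bright members that carry the tract, so that marked and unmarked windows can be compared. The sequences are those of RefSeq on GRCm38.p6, and 44 of the 51 members had an entry. Each line spans the 15 bases before and the first 15 bases after the annotated start, on the strand of the gene. Capitals mark a run of at least 5 pyrimidines that begins with C within 5 bases of the start.
Rpl38: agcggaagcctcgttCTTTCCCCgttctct
Rplp2: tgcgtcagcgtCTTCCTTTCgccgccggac
Rps18: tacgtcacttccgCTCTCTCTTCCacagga
Rps6: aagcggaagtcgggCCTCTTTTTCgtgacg
Rps27: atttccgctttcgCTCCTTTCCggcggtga
Rpl3l: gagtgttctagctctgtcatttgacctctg
Rps25: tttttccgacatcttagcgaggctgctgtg
These windows lie at chr11:114668565-114668594 on the plus strand for Rpl38, chr7:141447636-141447665 on the plus strand for Rplp2, chr17:33955651-33955680 on the minus strand for Rps18, and chr4:86857353-86857382 on the minus strand for Rps6. Those of Rps27, Rpl3l and Rps25 are chr3:90213634-90213663 on the minus strand, chr17:24727811-24727840 on the plus strand and chr9:44407699-44407728 on the plus strand. No such run begins within 5 bases of the start in the windows of Rpl3l, which has a further annotated start, or Rps25. The Rps25 window opens with pyrimidines farther upstream, and a tract at a start outside the searched bases was not looked for.

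A start on C followed by at least 4 pyrimidines was present in 8 of 38 large and small subunit genes with an entry (21.1%), 0 of the 6 genes set apart and 3.01% of all 27025 genes in the table. Allowing the run to begin within 5 bases of the start gave 18 of 38 (47.4%), 2 of the 6 set apart, 24.6% of 69 mitochondrial ribosomal protein genes and 21.2% of all genes. Annotated starts are often a few bases off, so the narrower count depends on the annotation. The 7 letters CCGGAAG, read on both strands over the 250 bases before and 50 bases after the start, were found in 19 of the 38 (50%), against 9.93% of all genes and 37.7% of the mitochondrial ribosomal protein genes. TATAAA between 35 and 16 bases before the start was found in 0 of 38, against 2.22% of all genes, and CACGTG in 10.5% against 8.09%. These matches describe letters and were not tied to the changes below.

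Signals are scaled array units, and signals of different probe sets do not rank transcripts. Over the 111 arrays 37 members had a mean signal of 1000 or more, called bright here, and 13 lay below it, called dim, the lowest being Rps15a-ps6 at 5.52. This split was made after the values were seen. Probe sets shared with other genes were not used for any member. Among dim members they numbered 9 for Rps6, 5 for Rpl14, 3 for Rpl37 and 2 for Rpl12. There was 1 each for Rps25, Rps27, Rpl27a and Rpl39, and some bright members had them too. The differences below are those of single-gene probe sets. Around their group means the bright members moved together: the median Pearson correlation over their 666 gene pairs was 0.77, against 0.03 over 78 pairs of dim members and 0.04 over 481 mixed pairs. All pairs share the same 111 arrays and their scaling. Rpl13a followed the median of the other members most closely, with a correlation of 0.95, followed by Rps4x and Rps3 at 0.94. Rpl3l stood at 0.50, Rps25 at 0.31 and Rps4l at -0.15. The coefficient of variation within groups was lowest for Rps20, at 7.73%, and highest for Rps15a-ps6, at 58.9%.

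**Figure D1:**
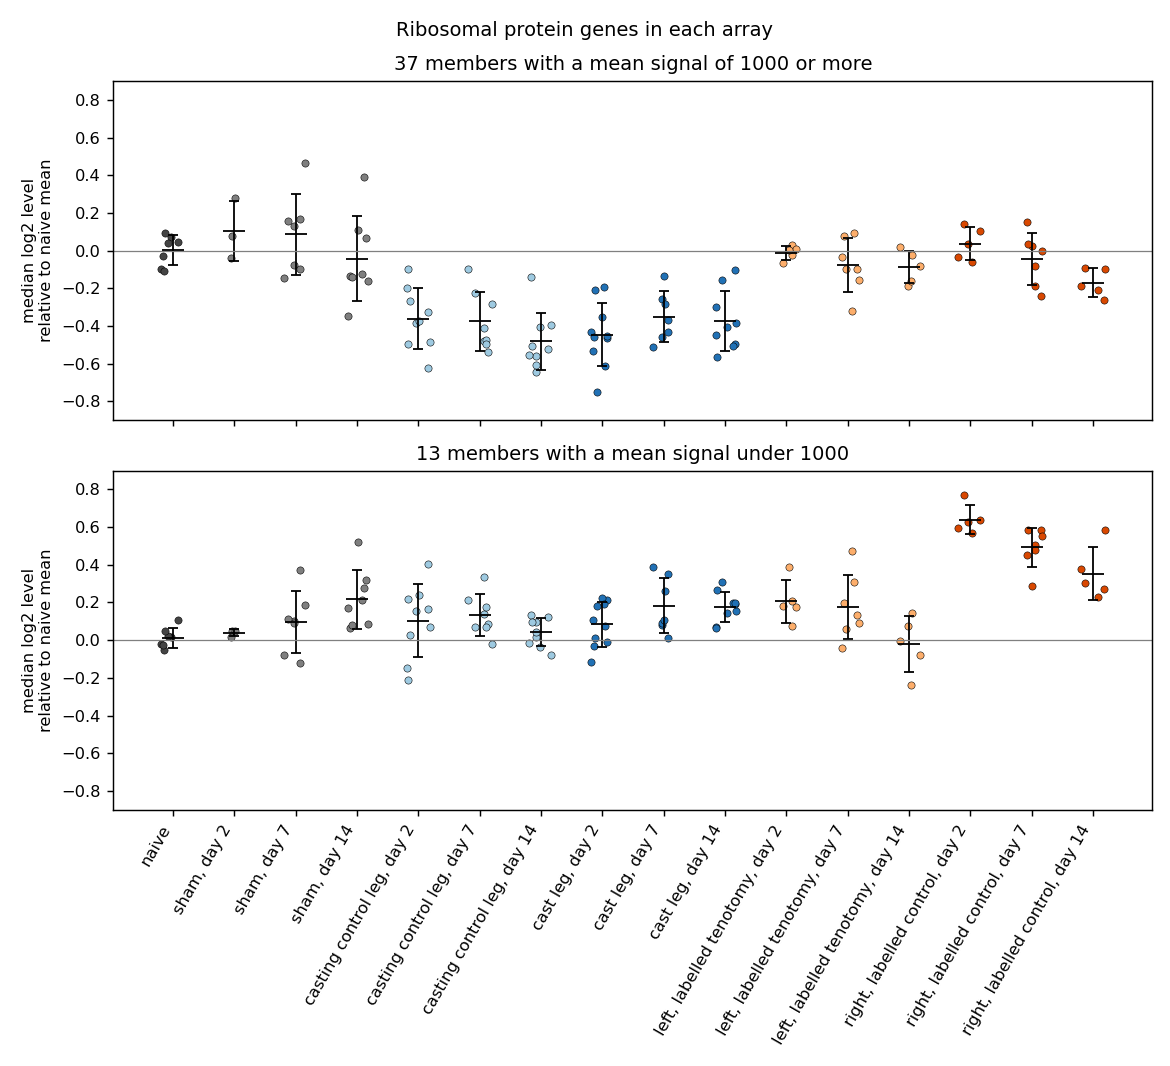
Median log2 level of the 37 bright (upper panel) and 13 dim (lower panel) members in each array, relative to the naive mean of each gene, by group. Points are arrays and bars are group means with SD. Bright members average -0.35 to -0.48 in the 6 casting cohort groups, which holds for the authors' scaling and not after quantile normalization (member median 0.01 in casting control legs against naive), and dim members average 0.64, 0.49 and 0.35 in the right legs of the tenotomy mice at days 2, 7 and 14.

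The differences below are log2 differences between groups from a limma model of all 16029 genes, with p-values adjusted by Benjamini and Hochberg's method, and a gene was called at an adjusted p under 0.05. The arrays had been scaled by the authors to a common mean, and the direction of the bright members turned with the scaling. The main member counts are therefore set beside those after quantile normalization and after centring each array on its median gene. A member called in the same direction under all 3 scalings is described as held under all scalings. Members beyond the largest changes are named because they were called, after their values were seen.

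Casting was addressed first, by comparing each cast leg with the untreated leg. Under the authors' scaling 4, 2 and 6 of the 50 members were called at days 2, 7 and 14. These counts depended on the scaling, and those at days 2, 7 and 14 were all larger after quantile normalization. At day 2, 2 members were higher in the cast legs and 2 lower, against a background of 11% and 13.3% of all genes. At day 7, 2 were higher (background 4.22%) and 0 lower (background 4.55%), and at day 14, 6 were higher (background 7.17%) and 0 lower (background 6.04%). The count of lower members at days 7 and 14 comes from limma, and 6 and 13 of the 50 members had an unadjusted p under 0.05 at those days in either direction. Of all 16029 genes, 3145 and 4153 did. The median member difference was -0.09, 0.00 and 0.08 at days 2, 7 and 14, with Rpl37a, Rpl12 and Rps20 nearest to it, and the median of all genes was -0.03, 0.01 and 0.04. Quantile normalization gave 2 higher and 8 lower, 17 and 1, and 25 and 0 at the 3 days, and median centring gave 2 and 1, 1 and 0, and 3 and 1.

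Rps25, a small subunit protein known for its part in translation from internal entry sites, rose in cast legs at all 3 days under all scalings. It was read from its only single-gene probe set, with a mean signal of 81.6, and a probe set shared with other genes was not used. Its signal at day 2 ran from 74.8 through a median of 97.6 to 131 in 10 cast legs, and from 54.6 through 65.0 to 81.3 in 9 control legs. At day 7 it ran from 72.6 through 96.2 to 110.0 in cast legs and from 57.3 through 68.4 to 77.0 in control legs. At day 14 the cast legs lay at 65.0, 87.1 and 133 (lowest, median and highest), and the control legs at 53.3, 62.8 and 78.4. The groups overlapped at every day, but the cast leg was higher in 9 of 9, 7 of 7 and 8 of 9 mice with both legs. The log2 difference was 0.57 (SE 0.094, limma adjusted p = 6.32e-07) at day 2. It was 0.48 (SE 0.11, limma adjusted p = 0.000704) at day 7 and 0.42 (SE 0.096, limma adjusted p = 0.000984) at day 14.

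Rps27, a zinc finger protein of the small subunit, rose at day 2 by 0.76 (SE 0.20, limma adjusted p = 0.00182). Its signal was 44.3, 59.0 and 78.4 at the lowest, median and highest of 10 cast legs and 19.7, 32.6 and 81.0 in 9 control legs, so that 1 control leg lay above every cast leg. Its differences of 0.39 at day 7 and 0.21 at day 14 were not called. Rps6, the small subunit protein that S6 kinases phosphorylate downstream of mTORC1, fell at day 2 by 0.44 (SE 0.088, limma adjusted p = 3.51e-05) on its brightest probe set. It was lower in the cast leg of 9 of 9 mice, with cast legs at 97.3 to 129 and control legs at 123 to 164. With the probe sets of each gene averaged instead, its difference was 0.15, so the direction rests on the probe set. The other Rps6 probe set had a mean signal of only 8.27, against 152 for the one used. The fourth call at day 2 was Rps3, an entry channel protein of the small subunit, which stood at -0.23 (limma adjusted p = 0.0220).

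At day 7 the other call was Rpl11, which can bind the p53 regulator Mdm2 when it is free of the ribosome, at 0.21 (limma adjusted p = 0.0497). It was not called in 8 of 14 alternative settings (limma adjusted p up to 0.157), among them that with no block for the animal (limma adjusted p = 0.0742). At day 14 the other calls were Rps4l at 0.54, Rps19bp1 at 0.41, Rpl22 at 0.22, Rpl35 at 0.22 and Rps9 at 0.19. Of these 5, Rps19bp1 was held under all scalings. The limma adjusted p of Rps4l was 0.0267, and 0.0791 after quantile normalization. Macrophage markers moved with the day 14 calls, 16 of 16 being higher in cast legs, with summed signals of 4741 to 10232 in cast and 2577 to 5345 in control legs. At day 2 only 1 of the 16 was higher and 9 were lower, and at day 7 3 were higher. Their part in the member differences was not tested.

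Rpl3l was not called in casting. Its differences were -0.10, -0.23 and -0.12, with limma adjusted p = 0.358, 0.0626 and 0.324. Its signal in cast legs ranged from 2655 to 3970 over the 3 days and in control legs from 2917 to 4418. The stalk proteins Rplp0 and Rplp2, which recruit the elongation factors, and Rpsa, at the head of the small subunit, were not called at any of the 3 days, with differences between -0.19 and 0.11.

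**Figure D2:**
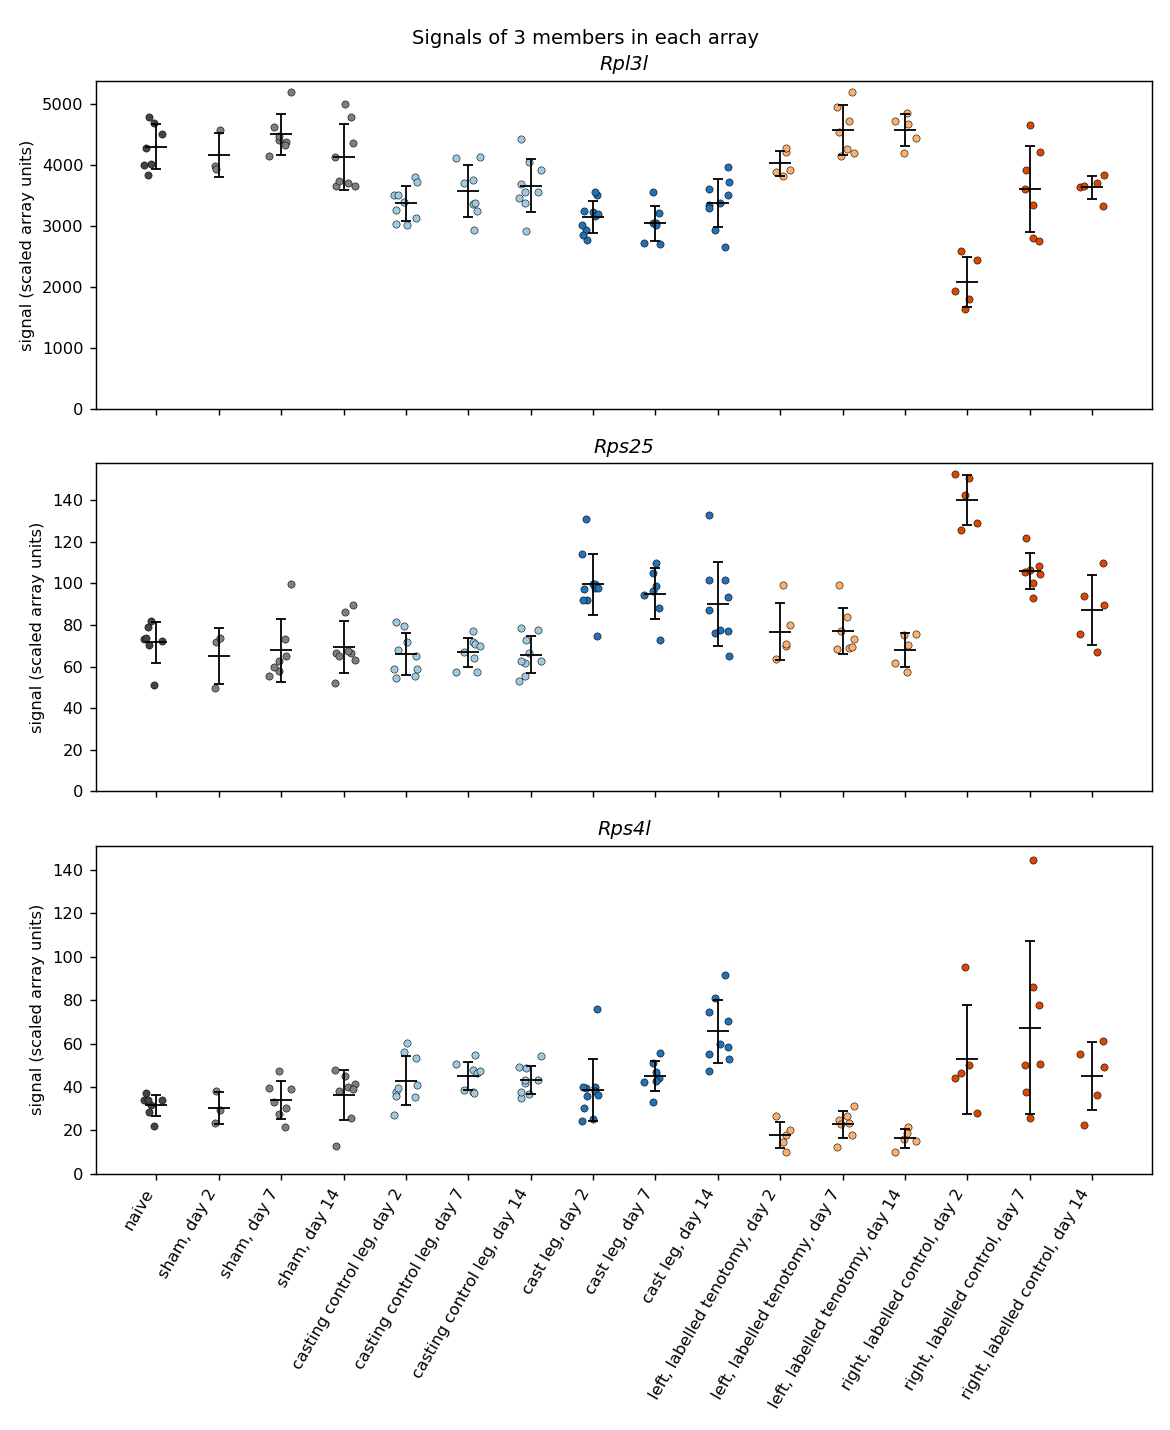
Signal of Rpl3l, Rps25 and Rps4l (scaled array units, 3 separate axes from 0) in each array by group, with group mean and SD. Rpl3l is lowest in the right legs of the tenotomy mice at day 2, at 1631 to 2586, Rps25 is highest there, at 126 to 153, and Rps4l is at 9.98 to 31.2 in the left legs.

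In the tenotomy mice the left leg (labelled tenotomy) was compared with the right leg (labelled control) of the same animals. Rpl3l was higher in the left legs and Rps4l and Rps25 were lower. At day 2, 1 member was called higher (background 15.9%) and 9 lower (background 20.8%). At day 7, 1 was higher (background 14.6%) and 11 lower (background 18.3%), and at day 14, 1 was higher (background 9.71%) and 3 lower (background 13.5%). The median member difference was -0.04, -0.07 and 0.05, with Rpl27a nearest to it at days 2 and 7 and Rpl19 at day 14, and the median of all genes was -0.02, 0.00 and -0.02. After quantile normalization the 3 days gave 1 higher and 37 lower, 1 and 32, and 0 and 8. After median centring the split turned, with 17 higher and 2 lower, 11 and 2, and 15 and 2, so no direction of the family as a whole can be read. Median centring itself moved the median of all genes to 0.27, 0.19 and 0.18.

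Rpl3l at day 2 had signals of 3819, 3887, 3916, 4211 and 4282 in the 5 left legs and 1631, 1803, 1941, 2443 and 2586 in the 5 right legs. The sham muscles of that day stood at 3929, 3980 and 4577. The right legs were the low ones, with no overlap with either other group. The left minus right difference was 0.97 (SE 0.098, limma adjusted p = 7.29e-15), a 1.96-fold difference present in 5 of 5 mice. Fibre markers were higher in the left legs in 5 of 10 at that day (median 0.47, and -0.03 after quantile normalization), and their part in the difference was not tested. The difference was 0.36 (SE 0.083, limma adjusted p = 0.000225) at day 7, in 6 of 7 mice, and 0.33 (SE 0.099, limma adjusted p = 0.00773) at day 14, in 4 of 4 mice with both legs. The calls at days 2 and 7 were held under all scalings, and at day 14 quantile normalization gave 0.17 (limma adjusted p = 0.144). At day 14 left legs lay at 4187 to 4845 and right legs at 3325 to 3834, without overlap.

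Rps4l, named for its likeness to the small subunit gene Rps4x, was lower in the left legs at every day under all scalings. At day 2 its signals were 10.2, 14.5, 17.9, 20.0 and 26.5 in the left legs and 27.8, 44.2, 46.6, 50.3 and 95.1 in the right legs. At day 7 the lowest, median and highest were 12.2, 23.6 and 31.2 in 7 left legs and 25.6, 50.4 and 144 in 7 right legs. At day 14 they were 9.98, 15.1, 16.2, 18.6 and 21.5 in the left legs and 22.3, 36.3, 49.4, 55.4 and 61.4 in the right legs. The left leg was lower in 5 of 5, 7 of 7 and 4 of 4 mice, and the groups overlapped at day 7 only. The differences were -1.33 (SE 0.23, limma adjusted p = 1.30e-06), -1.27 (SE 0.20, limma adjusted p = 8.43e-08) and -1.21 (SE 0.24, limma adjusted p = 3.42e-05).

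Here Rps25 was the brighter in the right legs. At day 2 its signals were 63.8, 70.1, 70.8, 79.8 and 99.2 in the left legs and 126, 129, 142, 151 and 153 in the right legs, with sham at 49.6, 72.0 and 73.6. Left legs and sham overlapped, and the right legs stood above both. The left minus right difference was -0.85 (SE 0.13, limma adjusted p = 2.84e-08), held under all scalings. At day 7 it was -0.44 (limma adjusted p = 0.000601), lower in the left leg of 7 of 7 mice, and -0.25 with a limma adjusted p of 0.0680 after median centring. At day 14 it was -0.33 and was not called (limma adjusted p = 0.0520).

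The other members called lower in left legs at day 2 were Rpl12 of the stalk base, at -0.64, Rps19bp1, Rps6, Rpl14, Rps19, Rpl11 and Rpl22, at -0.55 to -0.21. At day 7 they were Rpl39l, a paralogue of Rpl39 known from testis, at -0.84, Rpl14, Rps19, Rps6, Rps19bp1, Rpl11, Rpl35, Rpl7 and Rpl22, at -0.49 to -0.19. At day 14 they were Rpl39l at -1.04 and Rps19bp1 at -0.37. Of all these, Rpl39l was held under all scalings, at days 7 and 14. Its day 14 difference was -0.85 (limma adjusted p = 0.0766) without left leg replicate 1 and -0.89 (limma adjusted p = 0.0617) without left leg replicate 5, and without the latter 2 members in all were called at that day. With the animal as a fixed block it was -0.99 (limma adjusted p = 0.0647). Rpl22 at day 2, a large subunit protein that binds structured RNA, had a limma adjusted p of 0.0488 and was no longer called without left leg replicate 1, 2, 4 or 5 or right leg replicate 2, 3 or 4 (differences -0.23 to -0.15). Its sign turned after median centring, at 0.08. The other probe sets of Rpl22 stood at -0.76 (mean signal 1373) and -0.13 (mean signal 386) at that day, so the size rests on the probe set. Macrophage markers moved with these calls, 16, 16 and 14 of 16 being lower in the left legs, with medians of -3.21, -1.74 and -1.35. Fibroblast markers were lower in the left legs for 8, 9 and 8 of 9. The part of either in the member differences was not tested.

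To place each leg, the right legs (labelled control) were set against sham muscles of the same day and side, from other mice. These comparisons share the right legs with the preceding ones. At day 2, 9 members were higher (background 19.6%) and 7 lower (background 15.5%). At day 7, 10 were higher (background 23.5%) and 15 lower (background 17.7%), and at day 14, 2 were higher (background 20.6%) and 10 lower (background 15.3%). The median member difference was -0.03, -0.03 and -0.14, with Rpl6, Rps4x and Rpl10a nearest to it, and the median of all genes was 0.04, 0.07 and 0.07. Quantile normalization gave 33 higher and 1 lower, 31 and 4, and 9 and 8, and median centring gave 3 and 20, 7 and 26, and 1 and 28. The balance of higher and lower members thus turned with the scaling at all 3 days. Median centring itself moved the median of all genes to -0.23, -0.16 and -0.13, and quantile normalization moved it to -0.04, -0.02 and -0.03.

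Rpl3l fell in the right legs relative to sham by 1.02 (SE 0.12, limma adjusted p = 5.93e-12) at day 2, held under all scalings. Fibre markers were lower in the same comparison in 10, 10 and 0 of 10 at days 2, 7 and 14 (medians -0.81, -0.93 and -0.25), but in 0, 4 and 1 after quantile normalization. Macrophage markers were higher in 16, 16 and 9 of 16 and fibroblast markers in 3, 8 and 6 of 9, and the part of these markers in the member differences was not tested. At day 7 the Rpl3l difference was -0.34 (limma adjusted p = 0.000689), and -0.07 (limma adjusted p = 0.508) after quantile normalization. At day 14 it was -0.18 and was not called (limma adjusted p = 0.136), and after median centring it was -0.37 (limma adjusted p = 0.00479). Between left legs and sham Rpl3l was not called at any day, with differences of -0.05, 0.02 and 0.16.

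Rps25 rose in the right legs relative to sham by 1.08 (SE 0.16, limma adjusted p = 1.03e-08) at day 2 and 0.63 (SE 0.11, limma adjusted p = 1.94e-06) at day 7, both held under all scalings. At day 14 its difference was 0.31 (limma adjusted p = 0.0388), and it was not called without right leg replicate 2, 3 or 5, with differences of 0.30, 0.22 and 0.27. After quantile normalization it was 0.16 (limma adjusted p = 0.360). Rps6 rose by 0.67 (limma adjusted p = 8.96e-05) and 0.56 (limma adjusted p = 6.11e-06) at days 2 and 7, held under all scalings, with signals of 224 to 254 in the right legs and 137 to 159 in sham at day 2. With probe sets averaged, both calls were lost, at 0.40 (limma adjusted p = 0.206) and 0.098 (limma adjusted p = 0.711). The other Rps6 probe set in that average had a mean signal of only 8.27. Rpl12 rose by 0.95 at day 2 (limma adjusted p = 0.000442), held under all scalings. Its right legs lay at 49.6 to 77.9 and its sham muscles at 28.5 to 32.5. At day 7 the largest rises were Rpl39l at 1.08, Rpl37, a zinc-binding large subunit protein, at 1.06, and Rps4l at 0.76 (limma adjusted p = 0.00160). All were held under all scalings, but Rpl39l had a mean signal of only 10.6. At day 14 the largest rise was the pseudogene Rps15a-ps6 at 1.03, held under all scalings, with a mean signal of only 5.52.

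Lower members in the right legs included Rps2 at -0.53 and -0.60 at days 2 and 7, Rps24 at -0.49, -0.39 and -0.30, Rps7 at -0.44, -0.43 and -0.34, and Rpl27 at -0.39, -0.54 and -0.51 over the 3 days. Rps2 sits at the message entrance of the small subunit, and Rps24 and Rps7 take part in assembling that subunit. Rpl27 was held under all scalings at days 7 and 14, Rps2 at day 7 and Rps7 at day 14. Other probe sets of 3 of these genes ran the opposite way at day 2: those of Rpl27 at 1.16 and 0.86, that of Rps7 at 0.11 and the 5 of Rps24 at 0.08 to 0.78. Those of Rpl27 did so again, at 1.36 and 0.92 at day 7 and at 0.77 and 0.54 at day 14. That of Rps7 stood at 0.32 at day 7 and -0.03 at day 14, and those of Rps24 at 0.33 to 0.98 and -0.09 to 0.52. At day 2 the Rps2 difference was -0.44 (limma adjusted p = 0.0766) without sham replicate 2. At day 14 the largest falls were Rps27 at -0.65, Rps27l, a paralogue of Rps27 induced by p53, at -0.58, and Rpl7l1, a nucleolar relative of Rpl7, at -0.51, all held under all scalings. Rps27 was not called without right leg replicate 2, 3 or 4 (differences -0.57, -0.58 and -0.67), and without replicate 3 a total of 7 members were called at that day. Rpl22 at day 2 stood at 0.28 (limma adjusted p = 0.0320) and was not called without sham replicate 1 or 3 or right leg replicate 2 or 3, with 0.21 to 0.28. Its other probe sets stood at 1.01 and 1.12 at day 2. Rps27l at that day stood at -0.32 (limma adjusted p = 0.0440) and was not called without sham replicate 1 or 2 or right leg replicate 1, 4 or 5, with -0.33 to -0.24. With probe sets averaged it was -0.18 (limma adjusted p = 0.307). Rpl22l1 at day 14 stood at -0.34 and, without right leg replicate 3, at -0.29 (limma adjusted p = 0.0609).

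**Figure D3:**
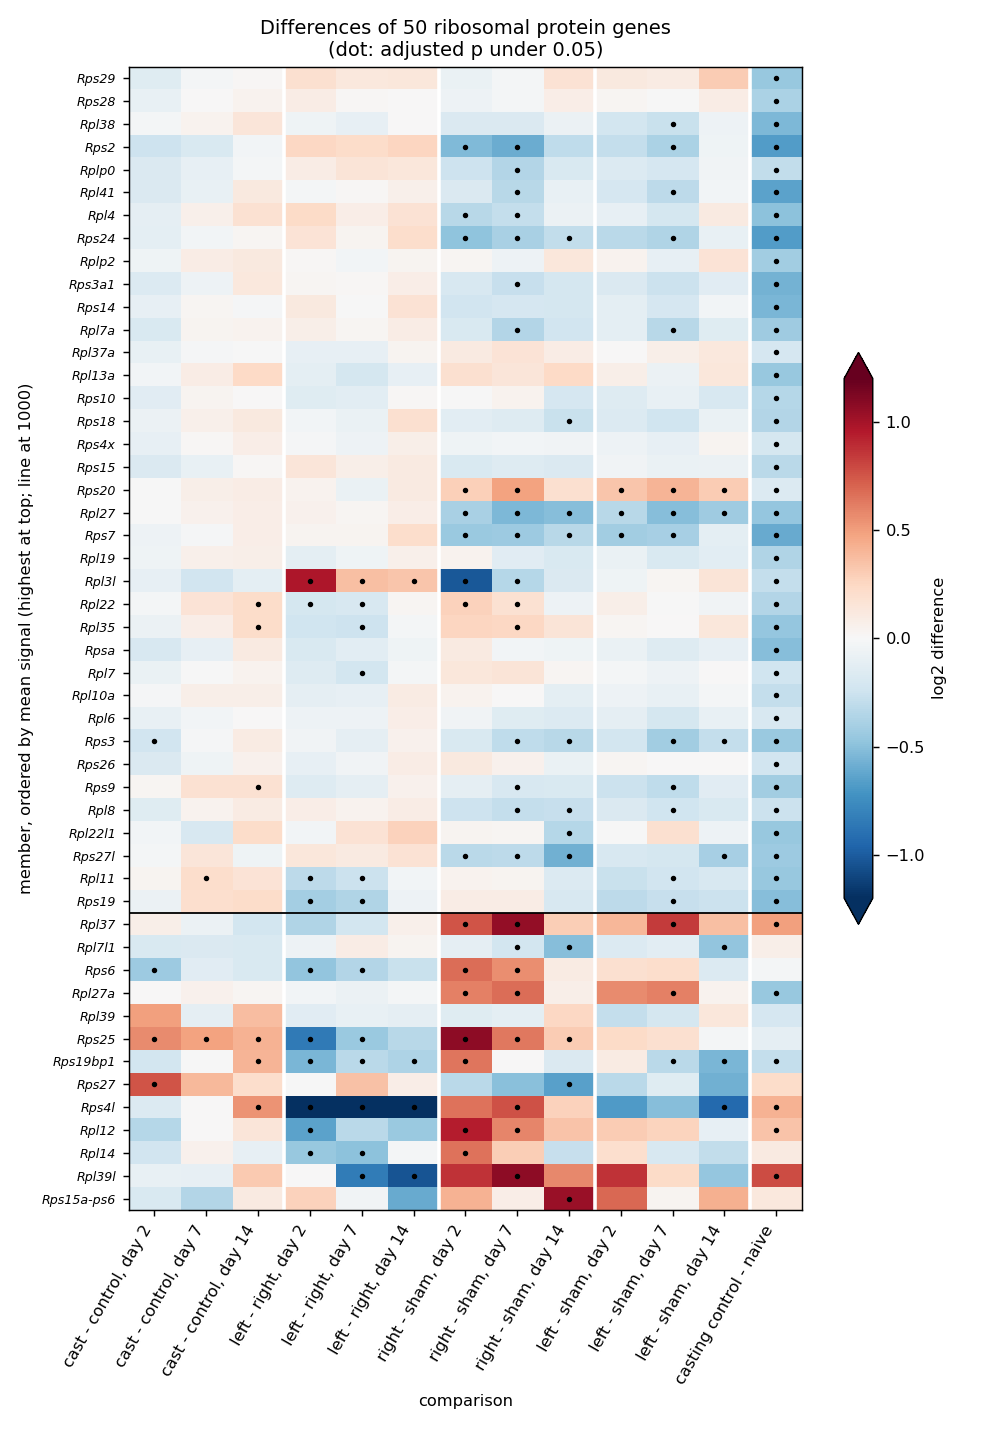
Log2 difference of the 50 tested members (rows, brightest at the top, line at a mean signal of 1000) in 13 comparisons (columns), with colour from -1.2 to 1.2 and beyond, and a dot where the limma adjusted p is under 0.05. The casting control legs against naive mice show 37 of 37 bright members lower, a balance that quantile normalization ends (10 of 50 members higher and 13 lower), and Rpl3l stands apart from its bright neighbours in left minus right at day 2.

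In the left legs (labelled tenotomy) against the same sham muscles, 1 member was higher (background 4.34%) and 2 lower (background 5.66%) at day 2. At day 7, 3 were higher (background 9.7%) and 13 lower (background 9.45%), and at day 14, 1 was higher (background 10%) and 6 lower (background 10.7%). The median member difference was -0.08, -0.15 and -0.07, with Rpl19, Rps27 and Rpl22l1 nearest to it. Quantile normalization gave 1 higher and 2 lower, 7 and 8, and 2 and 14, and median centring 1 and 0, 3 and 14, and 1 and 5. Rps20, at the beak of the small subunit, was higher at each day under all scalings, at 0.33 (limma adjusted p = 0.0258), 0.40 (limma adjusted p = 2.83e-05) and 0.30 (limma adjusted p = 0.00352). Its left legs lay at 4643 to 5886 over the 3 days and its sham muscles at 3281 to 5462. The dim members Rpl27a and Rpl37 were the other higher members at day 7, and both were held under all scalings. The lower members at day 2 were Rps7 at -0.41 and Rpl27 at -0.33. At day 7 the largest falls were Rpl27 at -0.51, Rps3 at -0.41 and Rps7 at -0.40, and at day 14 Rps4l at -0.93 (limma adjusted p = 0.000885), Rps19bp1 at -0.55 and Rpl7l1 at -0.47, each held under all scalings. The 3 calls of day 2 became 0 without sham replicate 1 or 2, and 1 without sham replicate 3 or left leg replicate 1, 2, 3 or 5.

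Casting mice were also compared with the separate naive mice. In the untreated left legs of the casting mice, averaged over days, 39 of 50 members were lower than in naive mice and 4 higher, against a background of 12.7% and 19.9%. Of the large subunit genes 18 of 22 were lower (median -0.36) and of the small subunit genes 17 of 20 (median -0.40), a difference that was not tested. The median member difference was -0.35, with Rpl22 nearest to it, and the median of all genes was 0.07. After median centring 40 were lower and 2 higher, and after quantile normalization 13 were lower and 10 higher with a median of 0.01, so the common fall is not present under that scaling. Of the 43 calls, 15 were held under all scalings.

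Rps2 had signals of 7957 to 9365 in the 7 naive muscles and 3912 to 8138 in the casting control legs, and its difference was -0.67 (SE 0.098, limma adjusted p = 1.53e-08). Naive muscles were the high ones, with the ranges meeting only at the top of the control legs. Rps24 stood at -0.67 (SE 0.086, limma adjusted p = 4.41e-10) and Rpl41, the shortest ribosomal protein, at -0.64 (SE 0.094, limma adjusted p = 2.09e-08). These 3 were held under all scalings. Other probe sets of Rps24 stood at -0.27 to 0.13 in this comparison and those of Rpl41 at -0.73 to 0.11, so the sizes rest on the probe set. The fixed members Rplp0 at -0.30, Rplp2 at -0.42 and Rpl3l at -0.29 were lower as well, but turned to 0.25, 0.08 and 0.10 after quantile normalization. Rpsa at -0.51, Rpl11 at -0.46 and Rpl22l1, the paralogue of Rpl22, at -0.45 were held under all scalings. The higher members were Rpl39l at 0.78, Rpl37 at 0.49, Rps4l at 0.42 and Rpl12 at 0.34, of which Rpl39l and Rpl37 were held under all scalings. Rpl39l lay near the low end of the signals, with a mean of 5.51 in naive muscle.

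Lower calls were also frequent among other bright genes. Of the 931 other genes with a mean signal of 1000 or more, 53.8% were lower in casting control legs than in naive mice, beside 37 of 37 members. At 3000 or more it was 79.2% of 255 other genes beside 32 of 32 members. The fibre markers were lower in 10 of 10 cases (2 higher and 4 lower after quantile normalization) and the macrophage markers higher in 15 of 16, and their part in the member differences was not tested. Against sham muscles of the same day, a comparison added after the data were seen, 36, 36 and 39 members were lower and 0, 1 and 1 higher, where 7.87%, 10.3% and 11.4% of all genes were lower and 8.77%, 15% and 14.6% higher. The cast legs against naive mice gave 39, 32 and 36 lower and 3, 4 and 4 higher, where 15.9%, 12% and 13.9% of all genes were lower and 19.3%, 18% and 22.7% higher. These added comparisons were run on the authors' scaling only. The cohort and the group cannot be told apart in these comparisons. The log2 ratio of the 3′ to the 5′ beta-actin probe sets also differed between the groups. It averaged -1.19 in naive muscle, -0.33 to -0.73 in the casting cohort and -0.02 to 0.11 in the right legs of the tenotomy mice. The ratio for Gapdh ranged only from -0.17 to -0.29, and whether RNA quality differed was not tested.

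Other bright genes were set beside the bright members in the tenotomy cohort. In left minus right at day 2, 65.6% of the 931 other genes at 1000 or more were higher in the left legs, and 2.7% of the 37 bright members were. At days 7 and 14 the shares were 54.9% beside 2.7% and 39.2% beside 2.7%. The member in each case was Rpl3l. In right legs against sham at day 2, 60.5% of the other bright genes and 18.9% of the members were lower. These shares describe genes that are not independent of each other, and their difference was not tested.

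No member was called between sham and naive muscle. The comparison gave 0 higher and 0 lower at days 2, 7 and 14 by limma, against backgrounds of 0% and 0%, 0.25% and 0.381%, and 1.02% and 1.25%. At an unadjusted p under 0.05 there were 0, 1 and 5 of the 50 members, beside 1120, 1455 and 2347 of all 16029 genes. Quantile normalization gave 2 higher members at day 14, and median centring gave 0 at each day. The members nearest the median were Rplp0, Rpl8 and Rpl27, and group means of the bright members lay between -0.04 and 0.10 relative to naive.

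The 2 models were compared by the difference of their leg differences, left minus right in tenotomy less cast minus control in casting. At day 2, 3 members were higher (background 15.6%) and 4 lower (background 19.3%). At day 7, 2 were higher (background 12.7%) and 8 lower (background 16.8%), and at day 14, 1 was higher (background 12%) and 4 lower (background 16.7%). Rpl3l, Rps25 and Rps4l differed at all 3 days. For Rpl3l the difference was 1.07 (limma adjusted p = 1.94e-12) at day 2, for Rps25 -1.41 (limma adjusted p = 1.72e-12) and for Rps4l -1.16 (limma adjusted p = 0.000633). Rps25 was thus higher in the right leg in both cohorts, the cast leg in one and the leg labelled control in the other. Quantile normalization gave 1 higher and 27 lower, 2 and 32, and 0 and 26, and median centring 14 and 2, 5 and 3, and 9 and 4. Median centring itself moved the median of all genes to 0.19, 0.18 and 0.20 here.

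Within casting, the leg difference at day 14 less that at day 2 was called higher for 3 members (background 8.24%), Rps4l, Rps19bp1 and Rps3, and lower for 0 (background 6.03%), where 15 members had an unadjusted p under 0.05 in either direction. Of all 16029 genes, 4104 did. Quantile normalization gave 19 higher and median centring 1. Within tenotomy it was higher for 0 (background 5.28%) and lower for 1 (background 2.86%), Rpl3l at -0.64 (limma adjusted p = 0.000711). Quantile normalization gave 10 higher and 1 lower, and median centring 0 and 1. The tenotomy count was 2 without left leg replicate 3 of day 2, left leg replicate 3 or 5 of day 14, right leg replicate 3 of day 2 or right leg replicate 3 of day 14.

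Members with several probe sets gave different answers with brightness. The 50 tested members had 104 single-gene probe sets that passed the filter, 54 of them besides the one used for its gene. In right legs against sham at day 2, 21 of 26 probe sets with a mean signal under 100 were above 0 (median 0.52), as were 12 of 13 between 100 and 1000 (median 0.83) and 15 of 19 between 1000 and 3000 (median 0.12). Of the 46 at 3000 or more, 17 were above 0 (median -0.05). Probe sets of single genes differed as well, in both directions, in examples chosen after their values were seen. The 6 of Rps10 ranged from -0.03 to 1.03, and the highest was that with a mean signal of 464. Rpl27 stood at -0.39 on its brightest probe set and at 1.16 and 0.86 on those with means of 980 and 688. Dimmer probe sets were lower than the one used for Rpl37a (-0.61 against 0.10), Rps4x (-1.11 against -0.05) and Rps20 (0.05 and 0.17 against 0.29). Their mean signals were 81.4 for Rpl37a, 8.48 for Rps4x, and 19.2 and 16.1 for Rps20.

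In that comparison 26 of the 54 other probe sets had the sign of the one used, in left minus right at day 2 it was 35, and in casting at day 2 it was 37. In casting control legs against naive mice 0 of 46 probe sets at 3000 or more and 1 of 19 between 1000 and 3000 were above 0, and 9 of 13 between 100 and 1000. A fold change of 1 probe set is therefore not a statement on all transcripts of its gene. Many ribosomal protein genes have near-identical copies and pseudogenes elsewhere in the genome, and whether their RNA reached these probe sets was not tested.

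**Figure D4:**
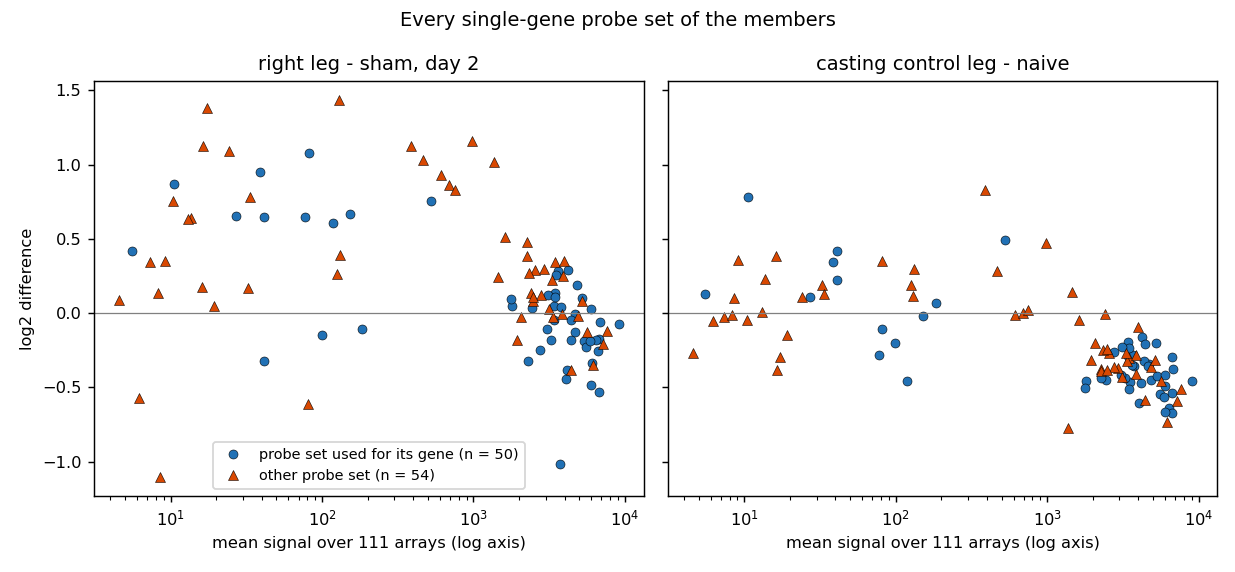
Log2 difference of every single-gene probe set of the members (104 points) against its mean signal over 111 arrays on a log axis, for right legs against sham at day 2 and casting control legs against naive mice. Circles are the 50 probe sets used for their genes and triangles the 54 others. On the left, 12 of 13 points between 100 and 1000 lie above 0, and on the right 0 of 46 points at 3000 or more do.

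Genes around the cytosolic ribosome were read from fixed lists, and the 2 largest rises and falls of each list were eligible to be named. Mitochondrial ribosomal proteins, which build the separate ribosome of that organelle, were mostly higher in the left legs. In left minus right, 47, 55 and 45 of 76 were higher at days 2, 7 and 14 (background 15.9%, 14.6% and 9.71%) and 0 lower (background 20.8%, 18.3% and 13.5%). Their medians were 0.25, 0.26 and 0.26. In right legs against sham 55, 62 and 65 were lower (background 15.5%, 17.7% and 15.3%) and 1, 2 and 2 higher (background 19.6%, 23.5% and 20.6%). These directions were the same after quantile normalization (46, 53 and 45 higher in left minus right, and 55, 60 and 64 lower against sham) and after median centring (71, 73 and 68, and 69, 71 and 70). In casting 22, 20 and 27 were lower (background 13.3%, 4.55% and 6.04%) and 10, 1 and 1 higher (background 11%, 4.22% and 7.17%). After median centring 9, 14 and 43 were lower and 11, 0 and 0 higher. Casting control legs had 54 lower (background 12.7%) and 2 higher (background 19.9%) than naive mice. Examples are Mrpl2, at 0.73 in left minus right at day 2, and Mrps36 and Mrpl34, at -1.06 and -1.04 in right legs against sham at day 2. The difference between the mitochondrial and cytosolic families was not tested.

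Ribosome biogenesis factors process ribosomal RNA and assemble both subunits, and 56 of the listed genes were tested. In casting 16, 6 and 7 were higher and 5, 0 and 1 lower, where 11%, 4.22% and 7.17% of all genes were higher and 13.3%, 4.55% and 6.04% lower. Riok2 and Tsr1, which act in late assembly of the small subunit, stood at 0.64 and 0.63 at day 2. Nop14 and Ncl, the nucleolar protein nucleolin, stood at 0.52 and 0.42 at day 7. Quantile normalization gave 16, 7 and 8 higher and 2, 0 and 1 lower, and median centring 21, 5 and 3 higher and 1, 0 and 3 lower. In left minus right 3, 9 and 6 were higher and 21, 10 and 1 lower, where 15.9%, 14.6% and 9.71% of all genes were higher and 20.8%, 18.3% and 13.5% lower. Quantile normalization gave 5, 11 and 10 higher and 19, 5 and 0 lower, and median centring 18, 28 and 28 higher and 2, 1 and 0 lower. In right legs against sham 20 were higher (background 19.6%) and 4 lower (background 15.5%) at day 2. Tsr1 at 1.13 and Nop58, a core protein of snoRNA particles, at 0.95 led the rises. The split was 18 and 7 after quantile normalization and turned to 6 and 11 after median centring. At day 7, 11 were higher (background 23.5%) and 19 lower (background 17.7%), with Wdr75 at 0.75 and the methyltransferase Fbl at -0.72. The day 7 split was 5 and 21 after quantile normalization and 3 and 33 after median centring.

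Elongation factors and other messages with a TOP tract had 16 tested genes, and their counts are to be read against the backgrounds of all genes given above. In left minus right 4, 0 and 1 were higher and 5, 4 and 1 lower. Quantile normalization gave 0 higher at each day and 7, 8 and 2 lower, and median centring 9, 5 and 5 higher and 2, 2 and 1 lower, so the balance turned with the scaling. Eef1a1, which delivers aminoacyl-tRNA to the ribosome, was lower in the left legs at each day, at -1.11, -0.91 and -0.74. The histone chaperone Nap1l1 was at 0.98 and Tpt1, the translationally controlled tumour protein, at -0.77 in right legs against sham at day 2. Casting gave 3, 4 and 2 higher and 0, 0 and 1 lower, with 3, 9 and 4 higher after quantile normalization and 3, 4 and 0 after median centring, and with Hnrnpa1, an RNA-binding splicing factor, at 0.65 at day 2 and Eif4b, which helps the scanning helicase, at 0.54 at day 7. In casting control legs against naive mice 2 were higher and 8 lower, with Tpt1 at -0.86 and the poly(A)-binding protein Pabpc1 at -0.56, and the split was 5 and 5 after quantile normalization and 1 and 11 after median centring.

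The mTORC1 list held 23 tested genes. In casting 4, 2 and 1 were higher and 3, 1 and 4 lower, where 11%, 4.22% and 7.17% of all genes were higher and 13.3%, 4.55% and 6.04% lower. Median centring gave 6, 1 and 0 higher and 0, 1 and 4 lower, and quantile normalization the same counts as the authors' scaling. Eif4ebp1, the translational repressor that mTORC1 inactivates, stood at 0.88 at day 2 and 0.50 at day 7. In left minus right 7, 5 and 5 were higher and 5, 3 and 1 lower, where 15.9%, 14.6% and 9.71% of all genes were higher and 20.8%, 18.3% and 13.5% lower. Quantile normalization gave 7, 7 and 5 higher and 5, 3 and 2 lower, and median centring 13, 12 and 10 higher and 1, 1 and 1 lower. Myc, a transcription factor that drives ribosomal gene expression, was lower in the left legs at -2.18, -1.24 and -0.91. In right legs against sham at day 2 Myc was at 1.95 and Ddit4, a stress-induced inhibitor of mTORC1, at 3.07. Larp1, which binds the TOP tract, was higher in the left legs at days 7 and 14, at 0.41 at both.

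**Figure D5:**
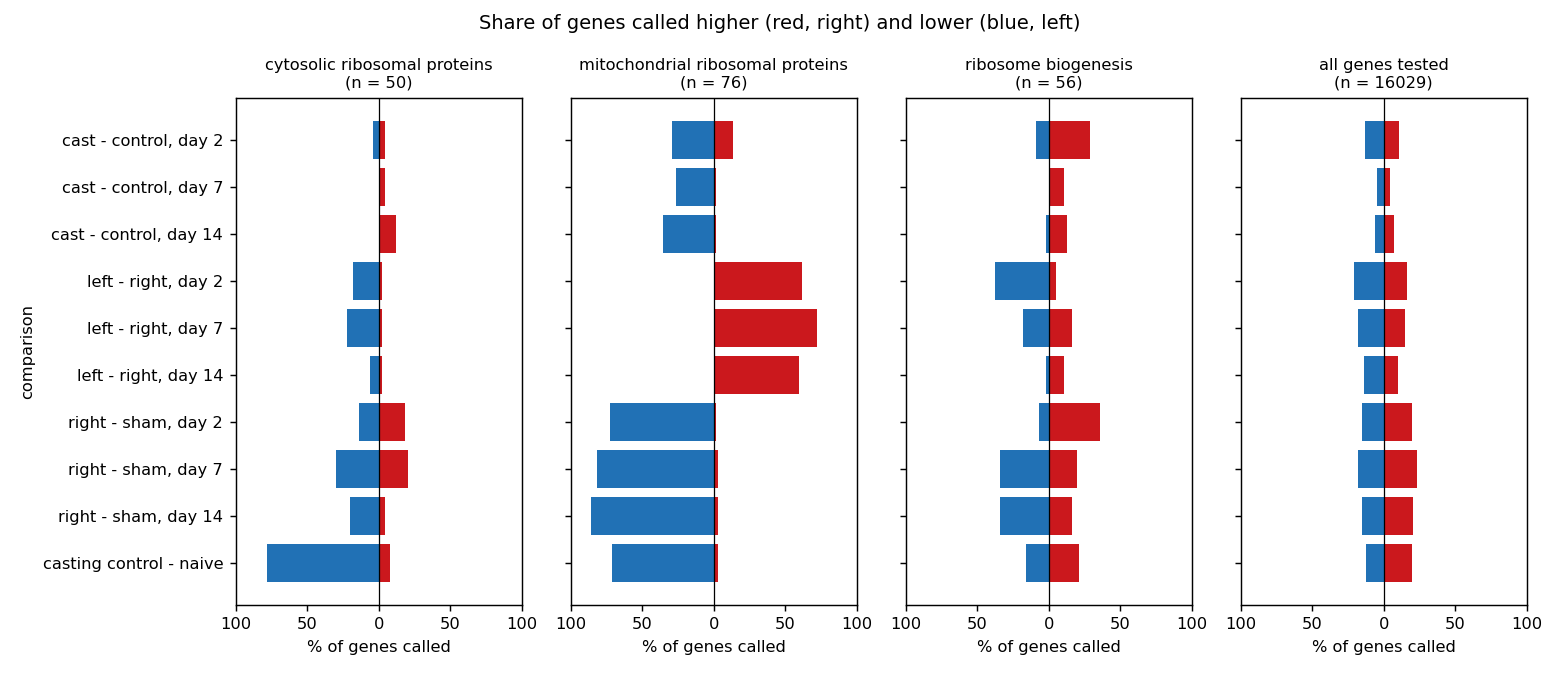
Percentage of genes called higher (red, to the right) and lower (blue, to the left) by limma in 10 comparisons, for cytosolic ribosomal proteins (n = 50), mitochondrial ribosomal proteins (n = 76), ribosome biogenesis factors (n = 56) and all 16029 genes tested. Mitochondrial ribosomal proteins are higher in left minus right, with 47 of 76 at day 2, where 1 of 50 cytosolic members is.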

How the data were processed

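RNA of 111 gastrocnemius muscles was measured on 45101 probe sets of an Affymetrix mouse array, 1 array per muscle. The deposited values are signal intensities that the authors made with MAS5 and GCOS, per the submitters' processing notes (versions not stated), each array already scaled to a common mean. Such arrays have no read depth, and their number limits the precision. The deposited intensities were converted here to log2(signal + 3.982), the constant being the 20th percentile of all signals. A probe set was kept if it exceeded its array's 40th percentile in at least 5 arrays, and the brightest single-gene probe set stood for its gene. Of all probe sets 34958 listed 1 gene, 932 several and 9211 none, and 34754 symbols of the single-gene probe sets matched RefSeq. One limma model (3.58.1, R 4.3.3) held 16 group means and a mean-variance trend, treated animals as random blocks (within-animal correlation 0.0964) and used Benjamini-Hochberg adjustment within each of 21 comparisons at 0.05. The fit without animal blocks was tested on simulated data, with independent noise, for cast against control legs at day 2 only.

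The named members were Rpl3l, Rpl22, Rpl22l1, Rps27, Rps27l, Rpl39l, Rplp0, Rplp2, Rpsa, Rps6 and Rpl11, and in each comparison the 3 largest called rises, the 3 largest called falls and the median member. The rule also lists Rpl3, Rpl5, Rpl10l and Rplp1, which had no single-gene probe set among those analysed here. The members and lists were chosen with earlier results of these data known. Legs were paired by the animal number: residuals of both legs of 1 animal correlated at a mean of 0.06 over 41 pairs, of which 13 exceeded 0.1, and same-numbered titles at 0.02 over 39 pairs. Alternatives were other scalings, pseudocounts, filters, probe set rules, blocks, weights and samples.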

Additional observations from a re-analysis of the deposited data

Results flagged for a closer look

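A single distant array was looked for in each group of 4 to 10 arrays for each of 7 measures, and 10 of these 105 tests found one, where chance gives about 1 in 20. The member median of casting control leg replicate 2 at day 14 was -0.10 relative to naive, against -0.56 to -0.34 in the other 8. The Rps2 signal of that array was 8138 (others 4311 to 5474), and that of casting control leg replicate 4 at day 7 was 7788 (others 4562 to 6045). Rps4l was at 75.8 in cast leg replicate 10 at day 2 (others 24.3 to 39.9). Rps25 was at 51.2 in naive replicate 5 (others 70.2 to 81.8) and at 99.7 in sham replicate 7 at day 7 (others 55.6 to 73.5). Rpl22 was at 5626 in that same sham array (others 3299 to 4137). Rps27 was at 88.5 in cast leg replicate 4 at day 7 (others 45.9 to 63.7), at 81.0 in casting control leg replicate 3 at day 2 (others 19.7 to 44.4) and at 89.2 in sham replicate 2 at day 7 (others 24.8 to 49.6).

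Differences between the tenotomy and casting leg differences passed limma's test with Benjamini-Hochberg adjustment for these members. At day 2 they were 1.07 for Rpl3l (adjusted p = 1.94e-12), 0.49 for Rps2, 0.33 for Rpl4, -0.34 for Rps19, -0.35 for Rpl11, -1.16 for Rps4l and -1.41 for Rps25 (adjusted p = 1.72e-12). At day 7 they were 0.59 for Rpl3l, 0.37 for Rpl22l1, -0.29 for Rps9, -0.33 for Rpl35, -0.35 for Rpl22, -0.47 for Rpl11, -0.54 for Rpl14, -0.56 for Rps19, -0.92 for Rps25 and -1.28 for Rps4l. At day 14 they were 0.45 for Rpl3l, -0.75 for Rps25, -0.78 for Rps19bp1, -1.35 for Rpl39l and -1.75 for Rps4l. Within casting, day 14 less day 2 was 0.70 for Rps4l, 0.63 for Rps19bp1 and 0.33 for Rps3, and within tenotomy it was -0.64 for Rpl3l. All tenotomy signs turn under the other reading of the operated leg.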

How the results depend on the processing

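Of the alternative counts of called members, 308 stayed within 1.5 times the reported count and 63 did not, and of the alternative values of named members 2165 kept direction and side of the threshold, 80 passed it newly, 86 no longer passed and 15 turned. The cause was not tested. Quantile normalization gave totals of 10, 18 and 25 members in casting at days 2, 7 and 14, 38, 33 and 8 in left minus right, 34 in right legs against sham at day 2, 16 in left legs against sham at day 14, 2 in sham against naive at day 14, and 23 in casting control against naive. It gave 28, 34 and 26 for tenotomy less casting, 19 for casting day 14 less day 2 and 11 for tenotomy day 14 less day 2. Median centring gave 1 in casting at day 7, 19 and 17 in left minus right at days 2 and 14, 29 in right legs against sham at day 14, 1 in left legs against sham at day 2, 16 and 13 for tenotomy less casting at days 2 and 14, and 1 for casting day 14 less day 2. Casting at day 7 gave 1 without a filter, without _x_at and _s_at probe sets, without a replicate block, with the title number as replicate block, with only the groups compared and without 12 arrays whose 20th percentile exceeded 5 (chosen after seeing the data). It gave 4 with averaged probe sets and 6 with array weights. Casting at day 2 gave 8 with the stricter filter, 7 with the title number as replicate block and 12 with array weights. Casting day 14 less day 2 gave 7 with the stricter filter, 5 with the title number as replicate block, 9 with array weights, 6 with only the groups compared and 5 without the 12 arrays. Tenotomy day 14 less day 2 gave 2 with pseudocount 16, the stricter filter, no _x_at or _s_at probe sets, array weights or without the 12 arrays. Left legs against sham at day 7 gave 10 without _x_at and _s_at probe sets and 10 with only the groups compared, where right legs gave 16. Tenotomy less casting at day 2 gave 11 with averaged probe sets. The animal as a fixed replicate block gave 2 in left minus right at day 14. This pairing by animal moved no other count by over 1.5 times.

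Leaving out single arrays gave 8 to 10 and 2 to 6 in left minus right at days 2 and 14, 11 to 16 and 7 to 11 in right legs against sham, 0 to 2 and 6 to 7 in left legs against sham, 0 to 0 in sham against naive at day 2, 5 to 7 and 5 to 6 for tenotomy less casting and 1 to 2 for tenotomy day 14 less day 2. Signs turned after quantile normalization for Rplp0 (-0.24), Rplp2 (-0.31) and Rps2 (-0.10) in left minus right at day 2, Rplp0 (0.24) and Rps2 (0.0068) in right legs against sham at day 2, Rplp0 (0.093), Rplp2 (0.36) and Rpsa (0.24) at day 7, and Rpl3l (0.10), Rplp0 (0.25) and Rplp2 (0.076) in casting control against naive. Signs turned after median centring for Rpl22 in left minus right at day 2 (0.079) and right legs against sham at day 7 (-0.043), and with averaged probe sets for Rps6 in casting at day 2 (0.15) and Rpl22 in right legs against sham at day 14 (0.32). Leaving out arrays over 3 deviations above the median low end was not run, since 0 arrays met it. Dim members lie nearer the background signal than bright ones, and folds there are compressed by the added constant.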
